A study of Mus musculus with 3 samples.

Results

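The 1058 broad peaks of histone H3 acetylated at lysine 27 (H3K27ac) in cultured mouse beige adipocytes are described here. They are the peaks of the deposited H3K27ac list that lie on chromosomes 1 to 19 and are at least 1500 bp wide, and they make up 6.06% of the 17450 H3K27ac peaks on those chromosomes (17564 peaks in the whole list). They were selected on width alone, a measured value, so their width, and the score of the same library, are given as description only. The cells were stromal-vascular cells of inguinal white fat from C57BL/6 mice, grown for 3 days, then to confluence, and induced for 48 h with insulin, isobutylmethylxanthine, dexamethasone, the thyroid hormone T3 and troglitazone, and then held for 6 days with insulin, T3 and troglitazone. Chromatin immunoprecipitation with sequencing (ChIP-seq) was done once for H3K27ac and once for Foxp4, a transcription factor of the forkhead family. The protocol in the labels describes only the Foxp4 antibody. An input DNA library was also made and was not used here. All libraries came from the same kind of cells, and the sex and age of the mice and any pooling of animals are not stated in the labels.

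H3K27ac is placed on nucleosomes beside active promoters and enhancers by the acetyltransferases CBP and p300. Regions where the mark extends over a long stretch are commonly found at genes that set the identity of a cell and at highly transcribed genes, and dense groups of such regions are known as super-enhancers or stretch enhancers. In fat cells, long acetylated regions are known at genes of the adipogenic factors, such as the C/EBP family, and at genes of lipid storage. MicroRNA genes of lineage-specific expression often lie in such regions too.

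Several broad peaks covered a microRNA hairpin or lay next to one, and the mature sequences of those taken up further on are printed below to show which of them share a seed. They are from the RefSeq annotation of the GRCm38.p6 assembly and run 5′ to 3′, with bases 2 to 8, the seed that pairs with target messages, in capitals. The choice of these microRNAs was made after their values were seen.
miR-21a-5p: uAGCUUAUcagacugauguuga
let-7i-5p: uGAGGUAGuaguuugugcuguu
let-7b-5p: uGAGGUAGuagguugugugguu
let-7c-5p: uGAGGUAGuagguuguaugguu
let-7e-5p: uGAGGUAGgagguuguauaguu
miR-125b-5p: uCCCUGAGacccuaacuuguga
miR-125a-5p: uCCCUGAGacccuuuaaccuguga
miR-196b-5p: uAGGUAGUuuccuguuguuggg
The 4 let-7 sequences share the seed GAGGUAG, and miR-125a-5p and miR-125b-5p share CCCUGAG.

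Of the promoters inside broad peaks, 5 are printed below because the results turn on them: Flcn has the highest score of all broad peaks, Foxo1 and Id3 carry more than 1 Foxp4 peak, and Plin4 and Sparc are promoters of fat cell and matrix genes with few CpG dinucleotides. They too were chosen after their values were seen. Each is the RefSeq window from 250 bp before to 50 bp after a transcription start site (TSS), 300 bases in all, on the strand of the gene and in GRCm38.p6 coordinates, the assembly of mm10. Capitals mark every match, on either strand, to the 10 short motifs that were searched. The GC box was GGGCGG, and the box of the nuclear factor Y family was CCAAT. The cyclic AMP response element was TGACGTCA, and the word of the AP-1 factors was TGACTCA. For the C/EBP family the palindrome TTGCGCAA was used, and for forkhead factors both TGTTTAC and the related TATTTAC were used. The E-box of clock factors was CACGTG, the word of ETS factors was CCGGAAGT, and that of the TATA box was TATAAA. No searched word contains another, and GC boxes can overlap one another.
Flcn, chr11:59809990-59810289, minus strand: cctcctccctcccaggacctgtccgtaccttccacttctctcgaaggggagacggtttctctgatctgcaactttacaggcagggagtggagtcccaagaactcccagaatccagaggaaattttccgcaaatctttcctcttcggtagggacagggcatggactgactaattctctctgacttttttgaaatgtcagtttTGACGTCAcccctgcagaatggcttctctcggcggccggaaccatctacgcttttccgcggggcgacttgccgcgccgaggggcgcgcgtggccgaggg
Foxo1, chr3:52268087-52268386, plus strand: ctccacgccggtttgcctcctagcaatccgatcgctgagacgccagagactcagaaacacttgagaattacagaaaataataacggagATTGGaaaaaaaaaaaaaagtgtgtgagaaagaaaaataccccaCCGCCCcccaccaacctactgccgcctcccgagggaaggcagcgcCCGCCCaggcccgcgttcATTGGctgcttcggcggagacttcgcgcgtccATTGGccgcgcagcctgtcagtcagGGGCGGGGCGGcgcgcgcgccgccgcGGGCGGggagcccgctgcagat
Id3, chr4:136143572-136143871, plus strand: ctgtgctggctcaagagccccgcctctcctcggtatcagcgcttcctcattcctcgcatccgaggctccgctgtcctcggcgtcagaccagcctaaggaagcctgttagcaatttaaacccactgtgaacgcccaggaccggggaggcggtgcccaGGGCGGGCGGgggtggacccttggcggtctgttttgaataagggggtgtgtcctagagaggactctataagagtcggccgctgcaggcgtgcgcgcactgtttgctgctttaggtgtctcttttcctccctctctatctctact
Plin4, chr17:56109733-56110032, minus strand: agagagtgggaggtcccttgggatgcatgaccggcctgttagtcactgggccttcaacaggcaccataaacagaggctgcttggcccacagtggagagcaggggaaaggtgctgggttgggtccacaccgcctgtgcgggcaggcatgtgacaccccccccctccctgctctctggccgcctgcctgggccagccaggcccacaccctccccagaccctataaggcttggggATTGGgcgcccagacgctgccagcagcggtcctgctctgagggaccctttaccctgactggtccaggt
Sparc, chr11:55420031-55420330, minus strand: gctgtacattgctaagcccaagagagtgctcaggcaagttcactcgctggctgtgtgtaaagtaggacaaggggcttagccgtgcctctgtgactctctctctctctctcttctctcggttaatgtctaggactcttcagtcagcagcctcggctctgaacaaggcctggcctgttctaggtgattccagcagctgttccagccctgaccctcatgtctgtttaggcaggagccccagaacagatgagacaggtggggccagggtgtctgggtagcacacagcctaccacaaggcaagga
The Flcn window held TGACGTCA, the Foxo1 window GGGCGG and CCAAT, the Id3 window GGGCGG and the Plin4 window CCAAT, while the Sparc window held none of the 10 words. A match is a description of the letters and not evidence that a factor bound there.

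The label of the cells was checked against 20 marker genes. Among adipocyte genes, Cebpa, Lipe and Lpl were each assigned 1 broad peak, with widths of 2309, 2469 and 2351 bp. Pparg, the nuclear receptor that drives fat cell formation, had 3 H3K27ac peaks of which the widest was 564 bp, Plin1 reached 1199 bp, Fabp4 833 bp and Cidec 653 bp, and Adipoq had no H3K27ac peak. Of the beige markers, Ucp1, Cidea, Dio2 and Prdm16 had no H3K27ac peak in the list, and Ebf2 and Ppargc1a had peaks of at most 873 and 641 bp. The progenitor markers Pdgfrb (2083 bp) and Ly6a (1673 bp) had a broad peak. Pdgfra reached 1230 bp, Cd34 and Dlk1 had 1 peak each of 334 and 333 bp, and Dpp4 had none. Broad peaks thus lay at a minority of the adipocyte markers (Cebpa, Lipe and Lpl) and of the progenitor markers (Pdgfrb and Ly6a), and at none of the 6 beige markers. Over all protein-coding genes, 4.05% had a broad peak, so none among 6 genes does not show a lower share than in all genes. The depth of the library is also unknown. In a culture of mixed cells, fewer cells of a type and less of the mark per cell cannot be told apart.

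The broad peaks covered 2.24 Mb, which was 18.4% of the length covered by H3K27ac peaks on these chromosomes. Their widths ran from 1502 to 7524 bp with a median of 1883 bp (quartiles 1654 and 2336 bp), against 324 to 1499 bp and a median of 507 bp in the other 16392 peaks. Most lay close to the threshold, and 101 were 3000 bp or wider. The 3 peaks just inside the threshold were assigned to P2rx7 (1502 bp, score 30), Prr5 (1503 bp, score 48) and C4b (1503 bp, score 56). The 3 just outside, each of 1499 bp, were assigned to Mir5129 (score 57), Gm12596 (score 39) and 2310001H17Rik (score 40). The score is the authors' own whole number for each peak, whose scale the file does not state, and it is used here only to rank peaks within the list.

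**Figure D1:**
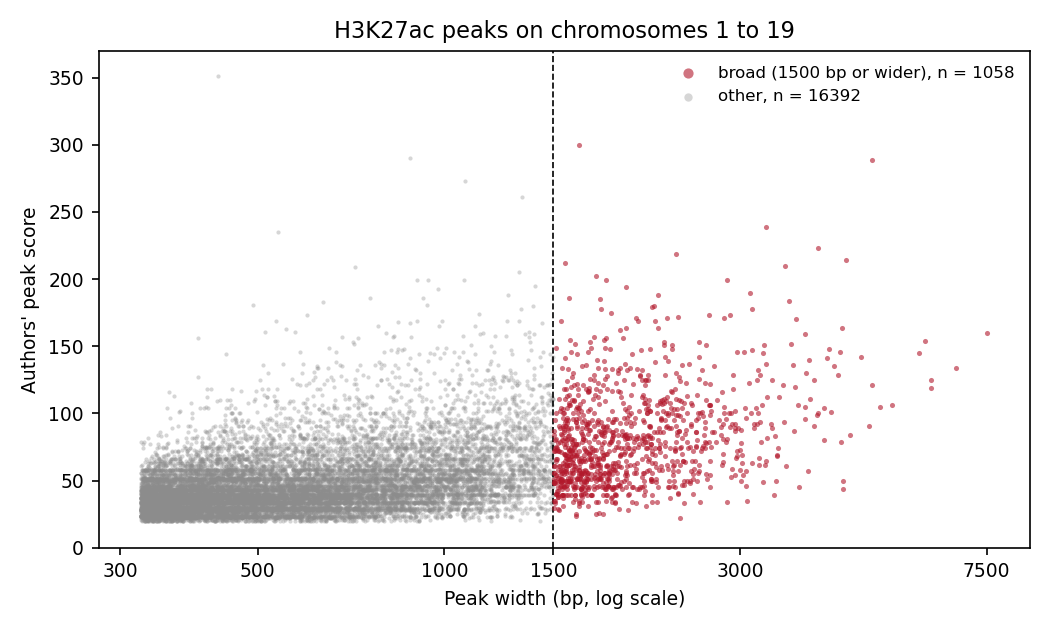
Width in bp (log scale) against the authors' score for every H3K27ac peak on chromosomes 1 to 19, with broad peaks in red, other peaks in grey and a dashed line at 1500 bp. The broad peaks had scores from 22 to 300 and the other peaks from 20 to 351, so the ranges overlapped almost in full, and the highest-scoring peak of the list was 431 bp wide.

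Broad peaks had a median score of 76 (range 22 to 300) and the other peaks one of 39 (range 20 to 351). Width and score are both read from the pile-up of the same library. Their Spearman correlation was 0.30 among the 1058 broad peaks and 0.46 over all 17450 peaks. Both values are descriptions across peaks that share this library and are not replicates. The ranking by score and the ranking by width agreed in part: 46 of the 100 highest-scoring peaks were broad, against 6.06% of the whole list. On the other side, 68 broad peaks (6.43%) scored below the list median of 40, and the highest-scoring peak of all (351) was 431 bp wide. Median score rose along the width classes to 68 in broad peaks of 1500 to 1999 bp, 83 at 2000 to 2499 bp, 86.5 at 2500 to 2999 bp and 104 at 3000 bp or more.

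The widest of all broad peaks, 7524 bp with a score of 160, was intergenic on chromosome 15 (85665692 to 85673215), 34320 bp upstream of the TSS of Lncppara, a long noncoding RNA gene near Ppara. Lrp1, an endocytic receptor for lipoproteins, followed with 6693 bp in intron 1 (chromosome 10, 127614262 to 127620954, score 134). A second intergenic Lncppara peak measured 6103 bp (score 119), and an intron 2 peak of Clec2d, a C-type lectin gene, measured 6092 bp (score 125). Prrx1, a homeobox factor of mesenchymal cells, had 5973 bp in intron 1 (chromosome 1, 163308355 to 163314327, score 154). Zeb2, a zinc finger repressor, had 5844 bp centred 6 bp upstream of a TSS (chromosome 2, 45107362 to 45113205, score 145). These 6 peaks are all more than 3 times the median width of the broad peaks.

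Ranks 7 to 15 by width ran from 5277 to 4407 bp. They were assigned to Mir3089, Tns2 (tensin 2, a focal adhesion protein), Trim8 (a ubiquitin ligase), Setd1b (a histone methyltransferase of the COMPASS family), Mir21a, the readthrough transcript Gm44505, Tgif1 (a homeobox repressor of TGF beta signalling), Krt78 (keratin 78) and Twist1 (a basic helix-loop-helix factor of mesenchymal cells). Their scores ran from 44 at Twist1 to 289 at Setd1b. The Krt78 peak was intergenic, 21839 bp upstream of the gene, and the Twist1 peak lay 8935 bp downstream of the TSS, so the assigned gene is the nearest TSS and not a measured target. Lrp1, Clec2d, Prrx1 and both Lncppara peaks were the 5 widest broad peaks with the centre outside promoters, by the measure defined below. Of these, only Clec2d shared bases with a Foxp4 peak (score 36, at the edge of the acetylated peak). A centre outside a promoter does not mean that the peak misses the start site. The Prrx1 peak, 5973 bp wide and centred 2309 bp downstream of the TSS, extended over that TSS.

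Ranked by score, the broad peaks were led by Flcn, encoding folliculin, a regulator of lysosomal nutrient signalling whose loss from mouse fat cells favours browning. The Flcn peak had a score of 300, a width of 1649 bp and its centre 4 bp from the TSS (chromosome 11, 59808773 to 59810421). A Foxp4 peak of score 32 lay inside it, from 59809217 to 59809576, downstream of the printed window. Setd1b had 289 (4894 bp, intergenic, 4049 bp upstream of the TSS), and Pcbp1, an RNA-binding protein that also carries iron, had 239 (3310 bp, in the 5′ UTR). The other 7 of the 10 highest scores, from 223 to 199, were those of 5031425E22Rik, Zadh2 (an oxidoreductase), Krt78, Rmi1 (a partner of the BLM helicase), Malat1 (an abundant nuclear long noncoding RNA), Eif4e2 (a cap-binding protein) and Hipk3 (a protein kinase). Only Setd1b and Krt78 stood among both the 15 widest and the 10 highest-scoring broad peaks.

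To ask where broad peaks lie, the share of peaks with the centre within 1000 bp of a TSS, called promoter peaks here, was compared between broad and other peaks. Broad peaks were more often at promoters: 543 of 1058 were promoter peaks (51.3%, interval 48.3 to 54.4%), against 5805 of 16392 other peaks (35.4%, interval 34.7 to 36.2%). The difference was 15.9 percentage points (interval 12.8 to 19.01) with an odds ratio of 1.92 (1.70 to 2.18) and an adjusted p of 7.4e-24 by a two-sided Fisher's exact test. Intergenic peaks were 208 of the broad (19.7%) and 4543 of the other peaks (27.7%), a difference of -8.06 points (interval -10.5 to -5.56, adjusted p = 1.2e-08 by the same exact test). Within the higher-scoring 50% of the list the intergenic shares were 19.1% in broad and 22.3% in other peaks, and that difference of -3.22 points missed the threshold (adjusted exact p = 0.055). Intervals of shares are exact (Clopper-Pearson, 95%) and reflect only the counting of peaks. With 1 library of each kind, the p-values of these tests, adjusted over 5 comparisons by Benjamini-Hochberg, treat peaks of the list as the units and say nothing about variation between cultures.

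The promoter share, counted by the peak centre, did not keep rising with width. It was 22.4% in peaks under 400 bp, 55.2% at 1000 to 1249 bp and 57.9% at 1250 to 1499 bp, and then 53.8% at 1500 to 1999 bp, 48.8% at 2000 to 2499 bp, 50.0% at 2500 to 2999 bp and 43.6% (interval 33.7 to 53.8%) at 3000 bp or more. Against peaks of 1000 to 1499 bp alone, a comparison chosen after seeing the data, broad peaks were less often at promoters (51.3% against 56.1%, a difference of -4.82 points, adjusted exact p = 0.030), and the intergenic shares were 19.7% in both. Within the higher-scoring 50% of the H3K27ac list the promoter shares were 51.9% in broad and 49.5% in other peaks (difference 2.40 points, adjusted exact p = 0.41). By this measure, the higher promoter share of broad peaks is thus a difference from the narrow and low-scoring peaks of the list. The measure uses the centre, so a peak over 2000 bp wide can cover a TSS and not be counted. This can lower the share in the widest classes and in the broad group by construction. With a window of 3000 bp the shares were 65.2% in broad and 43.4% in all other peaks, and the width classes were not recounted with it.

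**Figure D2:**
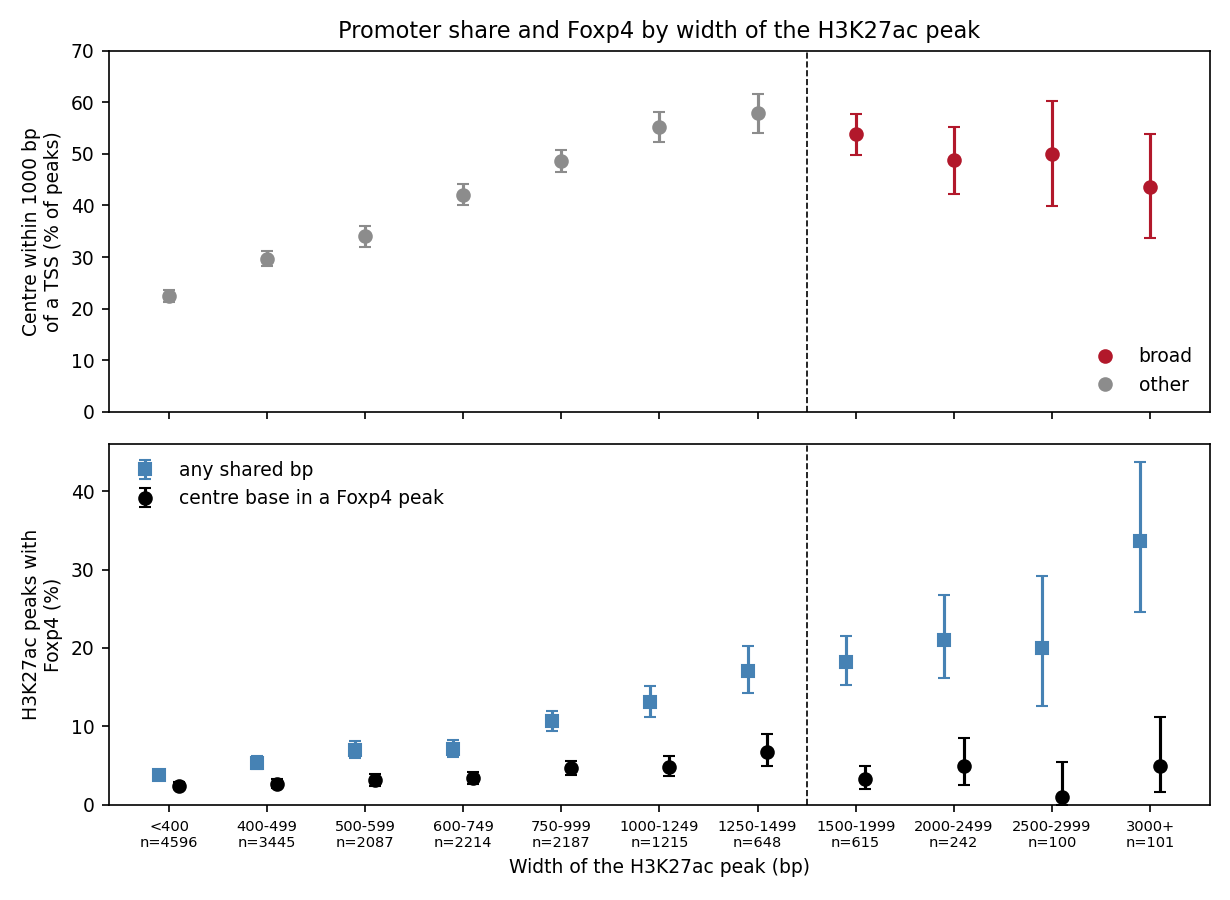
Upper panel, percent of H3K27ac peaks with the centre within 1000 bp of a TSS by width class (broad red, other grey). Lower panel, percent of H3K27ac peaks that share any bp with a Foxp4 peak (squares) or have their centre base in one (circles). Bars are exact 95% intervals and n is the number of peaks. The promoter share was highest, at 57.9%, in the class of 1250 to 1499 bp, and the share with any Foxp4 overlap reached 33.7% at 3000 bp or more while the share at the centre was 4.95% there.

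Broad peaks often spread over the start site itself: 525 (49.6%) covered the TSS nearest to their centre, against 2130 of the other peaks (13.0%), a measure that grows with width by construction. The centre lay downstream of the TSS at 350 of the 543 broad promoter peaks (64.5%) and at 4162 of the 5805 other promoter peaks (71.7%). The median signed distance was 145 bp in broad and 265 bp in other promoter peaks. Far from genes, 87 broad peaks (8.22%) and 2971 other peaks (18.1%) had their centre over 50000 bp from a TSS. By the authors' annotation class of the centre, introns held 39.7% of broad and 46.3% of other peaks, promoter-TSS 27.1% and 16.2%, and 5′ UTRs 5.10% and 2.34%. LINE, SINE and LTR repeats were the detailed annotation of 0.662%, 3.02% and 0.567% of broad peaks, and of 3.33%, 6.42% and 4.14% of other peaks.

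The sequence of the start sites was compared through 31396 RefSeq promoter windows of 300 bp, none of them on chromosome 18. Of these, 627 lay wholly inside a broad peak, 1445 wholly inside another H3K27ac peak and 27275 outside H3K27ac peaks. The median ratio of observed to expected CpG dinucleotides was 0.832 in windows inside broad peaks, 0.850 in windows inside other peaks and 0.326 in windows outside. At a ratio of 0.6 or more, 79.7% of the windows in broad peaks were CpG-rich, against 83.7% in other peaks and 29.9% outside. No test was made of these shares, since several windows can belong to 1 gene. The CpG-poor promoters inside broad peaks numbered 127 windows. Plin4, a perilipin gene whose product coats lipid droplets, had a ratio of 0.221, and Sparc, encoding a secreted matrix glycoprotein, one of 0.174, while the windows of Foxo1 (1.10), Flcn (0.833) and Id3 (0.704) were CpG-rich.

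Among the searched motifs, GGGCGG was found in 61.9% of windows inside broad peaks, 67.6% inside other peaks, 31.5% outside and 36.0% of all windows. The word TGACTCA was in 4.94% of windows inside broad peaks, 2.42% inside other peaks and 5.26% of all. CCGGAAGT was in 8.45%, 13.2% and 3.95%, and TGACGTCA, present at Flcn, in 1.44%, 3.46% and 1.83%. The C/EBP palindrome TTGCGCAA occurred in 4 windows inside broad peaks (0.638%), 2 inside other peaks (0.138%) and 0.178% of all windows, and CACGTG in 11.0%, 11.0% and 7.14%. For CCAAT the shares were 26.0%, 25.6% and 37.3%, and for TATAAA 5.26%, 4.43% and 13.6%. The forkhead words TGTTTAC and TATTTAC were in 2.87% and 1.44% of windows inside broad peaks, in 2.08% and 1.11% inside other peaks, and in 3.71% and 3.08% of all windows. Absence of a word says only that these letters are not in the window.

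Broad peaks were assigned to 930 genes, of which 540 had a broad promoter peak and 390 only broad peaks elsewhere. For 827 genes there was 1 broad peak and for 103 there were at least 2. Of the broad peaks, 944 were assigned to protein-coding genes, 111 to noncoding RNA genes and 3 to pseudogenes. Of 20665 protein-coding genes on these chromosomes, 837 (4.05%) were assigned a broad peak, and they were 10.7% of the 7801 genes with any H3K27ac peak. A broad promoter peak was present at 2.43% of protein-coding genes. These shares are the background for the gene lists below.

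The genes with most broad peaks were Mir21a with 6 and Lncppara with 5, followed with 4 each by Rasa3, 2310001H17Rik and Tgfbr3. Rasa3, a GTPase-activating protein of Ras and Rap, had all 4 in introns, with widths of 1559 to 2432 bp and scores of 55 to 114. Tgfbr3, the TGF beta co-receptor betaglycan, had its 4 in introns as well, from 1175 to 131161 bp downstream of the TSS, with widths of 1786 to 3001 bp. The 4 peaks of 2310001H17Rik, a long noncoding RNA gene, lay within 23.9 kb among 9 H3K27ac peaks.

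Broad peaks that lay at most 20000 bp apart were joined into stretches to see which of them formed groups. Most stood alone: 846 stretches held 1 broad peak, 80 held 2, 10 held 3, and 1 each held 4, 5, 6 and 7. The group with most broad peaks was at the Hoxc cluster of homeobox genes, which mark the position of a cell along the body axis. It held 7 broad peaks in 53.9 kb (chromosome 15, 102961682 to 103015606) out of 25 H3K27ac peaks. The 7 peaks were assigned to Hoxc10, the noncoding gene Gm36878, Hoxc8, Hoxc6 and Mir615, with widths from 1519 to 3716 bp and scores from 66 to 106. The widest lay in intron 1 of Hoxc8 (102990535 to 102994250). There were 4 Foxp4 peaks within the stretch, and 1 of them, of score 27, lay inside a broad peak, at Mir615.

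At Mir21a, 6 broad peaks lay in 45.7 kb (chromosome 11, 86570759 to 86616419) among 17 H3K27ac peaks. The microRNA miR-21 is widely expressed and in human adipose stromal cells promotes fat cell differentiation. The broad peak that covered the hairpin (86584067 to 86584158, minus strand) measured 4848 bp with a score of 91. The Mir21a hairpin lies beside Vmp1, a gene of autophagy, and 3 of the 6 broad peaks were in introns 10, 9 and 7 of 11 of a Vmp1 transcript. The scores of the 6 ran from 79 to 123, and no Foxp4 peak lay within the stretch.

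Near Lncppara, 5 broad peaks lay in 60.1 kb (chromosome 15, 85645115 to 85705253), again among 17 H3K27ac peaks and with no Foxp4 peak. Their widths were 1716, 6103, 7524, 2223 and 1527 bp from the far upstream end to the gene, with scores of 153, 119, 160, 74 and 38. The 3 farthest upstream thus had the higher scores, and the broad peak in intron 1 of Lncppara itself the lowest. The hairpins of let-7c-2 and let-7b began 1350 and 2066 bp beyond the end of that last peak.

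**Figure D3:**
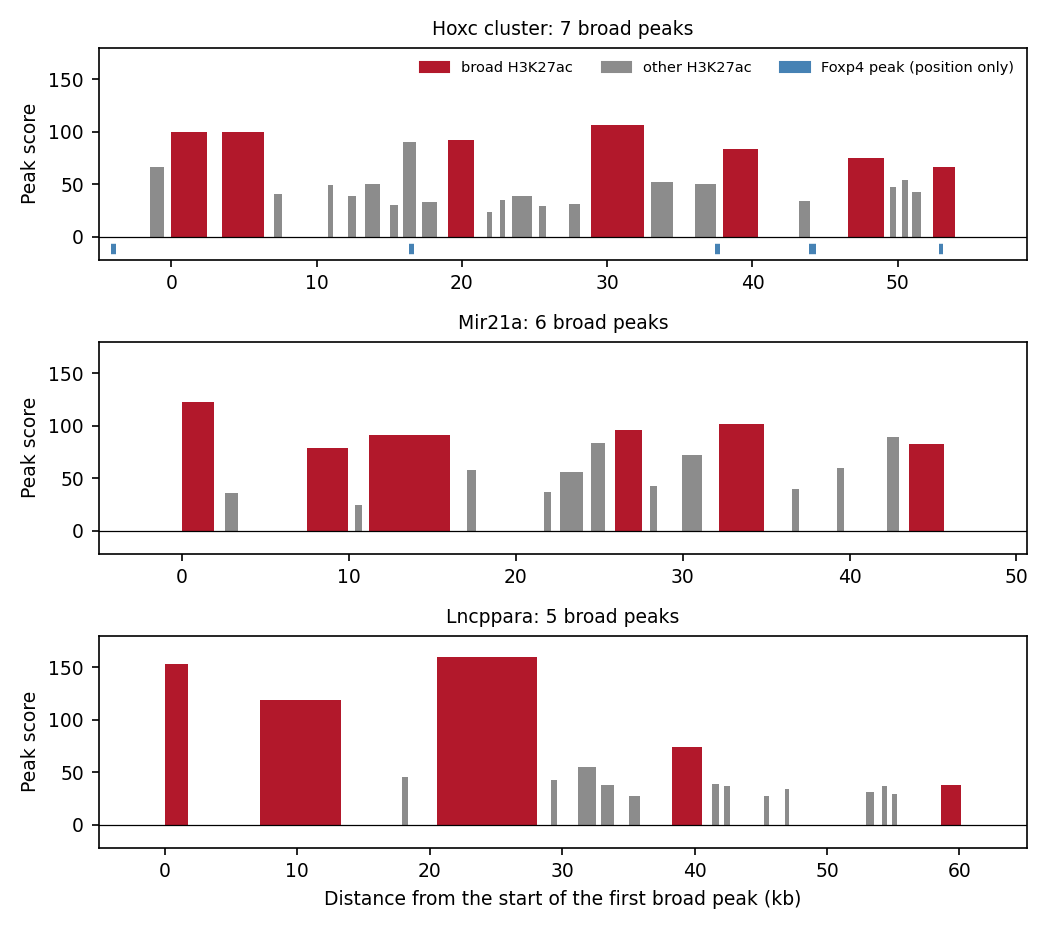
Maps of the 3 stretches with most broad peaks. The x axis is the distance from the start of the first broad peak in kb, and each bar is 1 H3K27ac peak drawn to its width with the authors' score as height (broad red, other grey). Blue marks below the line are Foxp4 peaks, drawn for position only, with 4 inside the span of the Hoxc stretch and 0 at Mir21a and Lncppara. The other H3K27ac peaks stand between the broad ones in every stretch.

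Smaller groups of 3 broad peaks each, 10 in all, included those at Sparc (7361 bp of broad peaks in 12.7 kb), Malat1 (7321 bp in 17.2 kb) and Tnrc18 (7263 bp in 10.3 kb). At Tnrc18 the broad peaks filled 70.4% of the span, at Sparc 58.1% and at Malat1 42.6%.

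The RefSeq sequence table used here does not hold every microRNA gene and has no hairpin on chromosome 18. Of its 919 microRNA hairpins on chromosomes 1 to 19, 11 (1.20%) overlapped a broad peak and 48 (5.22%) another H3K27ac peak. Counting those 11, 33 lay within 5000 bp of a broad peak, a count for which no share over other features was computed. For comparison, 627 of the 31396 promoter windows lay wholly inside a broad peak, a stricter measure than overlap. A higher share of hairpins than of other features in broad peaks is thus not shown. The 11 in that table were those of Gm51264, Mir125b-1, Mir1894, Mir196b, Mir21a, Mir3089, Mir3569, Mir5620, Mir707, Mir7671 and Mirlet7i. Mir615 and Mir7672, whose hairpins are not in the table, were the genes assigned to broad peaks of 1519 and 1873 bp centred 63 and 218 bp from their starts. Mirlet7i lay in a peak of 4144 bp with a score of 141 (chromosome 10, 122983482 to 122987625) whose centre was 171 bp from the start of the hairpin gene. Its family, let-7, restrains the chromatin protein gene Hmga2. Mir125b-1, of the lin-4 family, lay in a peak of 1670 bp with a score of 56, and Mir196b, within the Hoxa cluster, in one of 2166 bp with a score of 70.

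The shared seeds came from separate broad peaks. For GAGGUAG these were the peak over let-7i, the Lncppara peak beside let-7c-2 and let-7b, and a peak of 2330 bp with a score of 148 on chromosome 17 (17827033 to 17829362) that ended 990 bp before let-7e and 1450 bp before miR-125a. The same chromosome 17 peak and the one over Mir125b-1 account for the shared CCCUGAG. Mir23a, Mir27a and Mir24-2, which form 1 cluster, began 3978 to 4275 bp beyond a broad peak of 3522 bp with a score of 121. On chromosome 18, the peak assigned to Mir378a, a microRNA encoded in an intron of the coactivator gene Ppargc1b, measured 1782 bp with a score of 51, with its centre 160 bp upstream of the hairpin, and shared bases with 1 Foxp4 peak of score 33. Other microRNA genes named by the annotation were far from their peak, such as Mir6344 at 386745 bp and Mir218-2 at 199142 bp.

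Genes of 20 lists were then looked up to describe which functions the broad peaks lie at. Of 494 entries, 483 matched a gene on these chromosomes, the other 11 being X-linked genes. They are 472 distinct genes, of which 81 were assigned a broad peak. The counts below are read beside the 4.05% of all protein-coding genes with a broad peak and the 37.7% with any H3K27ac peak, and beside a median of 673 bp for the widest peak of genes that had one. Lists are small, their members were not drawn at random, and no test was made of them.

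Of the adipogenic transcription factors, 9 of 23 (39.1%) had a broad peak, and 20 had any H3K27ac peak, with a median widest peak of 1275 bp. Nfia, a nuclear factor I protein that drives the brown fat programme in mice, had 4396 bp with a score of 50 in an intron, centred 638 bp downstream of the TSS, and Klf9, a Krüppel-like factor induced by glucocorticoids, had 3 broad peaks with the widest at 4349 bp (score 146, 4954 bp upstream). Ebf1, an early B cell factor that acts in adipogenesis, had 4101 bp (score 80) and the glucocorticoid receptor gene Nr3c1 had 3202 bp (score 100). The other 5 were Nfib, Cebpa, Cebpb, Klf4 and Srebf1, with 3076 down to 1586 bp. The peak given to Klf4 lay 362184 bp from its TSS.

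Lipid storage and adipocyte genes had 7 of 30 (23.3%) with a broad peak and 26 with any peak, a median widest of 958 bp. Plin4 had 4099 bp with a score of 104, centred 6 bp upstream of its TSS (chromosome 17, 56107759 to 56111857), around the CpG-poor window printed above. Cav1, the caveolin of the fat cell surface, had 2977 bp (score 89), Lipe, the hormone-sensitive lipase, had 2469 bp (score 74), and Retn, encoding the hormone resistin, had 2462 bp (score 113) at 8651 bp upstream. Lpl, Cavin1 and Plin2 followed. In the list of thermogenic and beige fat genes 0 of 22 were found with a broad peak, although 9 of its members had an H3K27ac peak, with a median widest of 641 bp. The upper limit of the exact interval for that 0 is 15.4%, which is above the 4.05% of all genes, so a lower share than in all genes is not shown. The 0 also depends on assignment to the nearest TSS. A broad peak of 1782 bp was assigned to Mir378a, which is encoded in an intron of the list member Ppargc1b, and was not counted for Ppargc1b (widest assigned peak 804 bp).

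**Figure D4:**
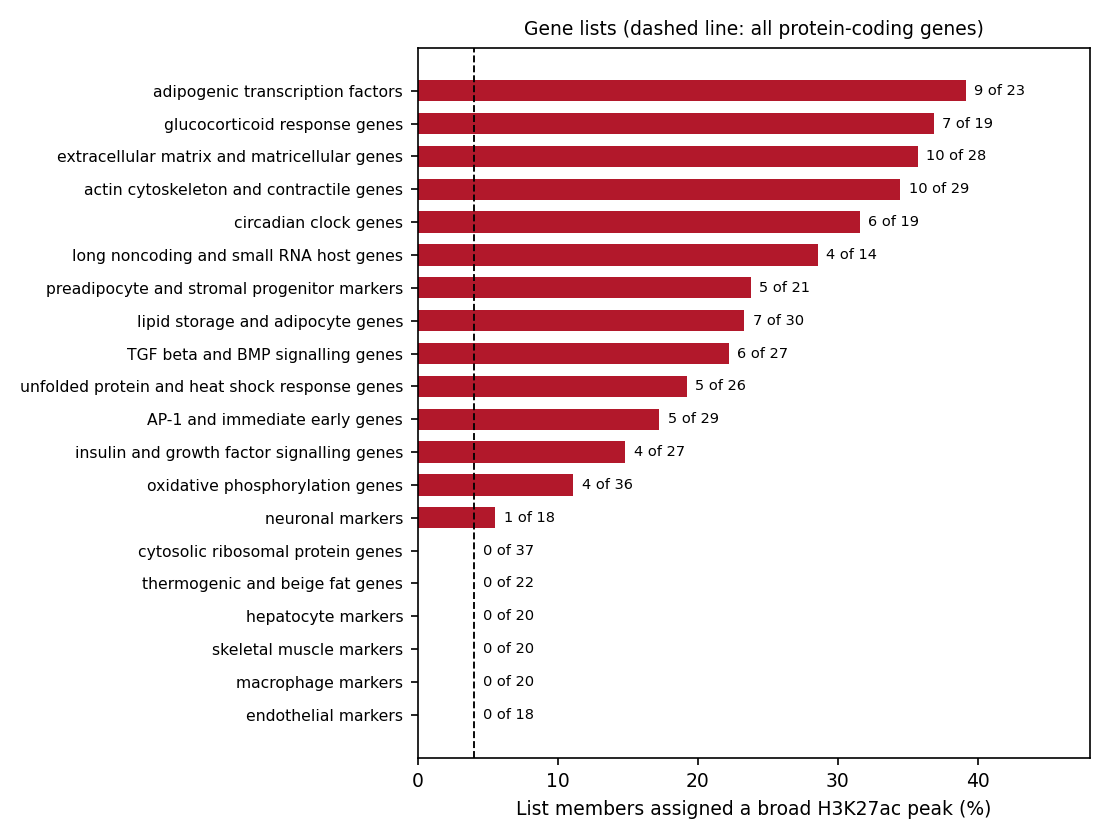
Percent of the matched members of each gene list that were assigned a broad H3K27ac peak, with the counts beside the bars. The dashed line is the 4.05% of all protein-coding genes, an unlike set for the list of noncoding RNA genes. Adipogenic transcription factors stand highest (9 of 23), and 6 lists have 0 members with a broad peak.

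Of the extracellular matrix genes, 10 of 28 (35.7%) had a broad peak, with a median widest peak of 1371 bp over the 21 with any peak. Sparc had 3 broad peaks with the widest at 3657 bp (score 136, chromosome 11, 55417021 to 55420677), Col4a2, a basement membrane collagen chain, had 2855 bp (score 81), Serpinh1, the collagen chaperone, had 2566 bp (score 56), and Col1a1, the major chain of type I collagen, had 2493 bp (score 48). Actin cytoskeleton and contractile genes had 10 of 29 (34.5%), with a median widest of 1294 bp over 25. Pfn1, an actin monomer binding protein, had 3834 bp (score 130) and Myh9, a nonmuscle myosin heavy chain, 2906 bp (score 53, 26037 bp downstream of the TSS). Tln1, the integrin activator talin, had 2369 bp (score 91) and the nuclear lamin gene Lmna 2367 bp (score 130).

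Of the glucocorticoid response genes, 7 of 19 (36.8%) had a broad peak. Klf9 is on this list too, and Zbtb16, a zinc finger factor, had 3 broad peaks with the widest at 3372 bp (score 92, 96276 bp downstream of the TSS). Sgk1, a serum- and glucocorticoid-induced kinase, had 2164 bp (score 72), and Ddit4, an inhibitor of mTOR signalling, 1833 bp (score 128, 18740 bp upstream). Circadian clock genes had 6 of 19 (31.6%). Dbp, a clock output factor, had 2348 bp (score 103) and Rora, a nuclear receptor that activates Arntl, 2009 bp (score 34). Arntl itself, encoding BMAL1, had 1982 bp (score 74, 53215 bp downstream of the TSS) and Bhlhe40, a repressor of the clock, 1971 bp (score 97).

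In the signalling lists, TGF beta and BMP genes had 6 of 27 (22.2%). The repressor Tgif1 had 4516 bp (score 84), Id3, an inhibitor of basic helix-loop-helix factors and a BMP target, had 4325 bp (score 129), and the receptor genes Tgfbr3 and Tgfbr2 had 3001 bp (score 58) and 2146 bp (score 102). Insulin and growth factor signalling genes had 4 of 27 (14.8%). These were Pik3r1, the regulatory subunit of phosphatidylinositol kinase (2588 bp, score 100), Foxo1, the forkhead factor restrained by insulin (2231 bp, score 109), the growth factor receptor gene Pdgfrb (2083 bp, score 66) and the kinase gene Akt1 (1952 bp, score 74). AP-1 and immediate early genes had 5 of 29 (17.2%), with Fosl2 at 3862 bp (score 57), the RNA decay factor Zfp36 at 2703 bp (score 86), Klf6 at 1955 bp (score 103) and Zfp36l2 at 1730 bp (score 71). None of the broad peaks of these 5 genes had its centre within 1000 bp of the TSS. This does not mean that they miss the start site. The Fosl2 peak, centred 1387 bp from the TSS, extended over it, and the widest Junb peak was centred 1004 bp away.

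Cytosolic ribosomal protein genes had 0 of 37 with a broad peak while 23 had an H3K27ac peak (exact upper limit 9.49%, above the 4.05% of all genes), with a median widest of 715 bp. Oxidative phosphorylation genes had 4 of 36 (11.1%), among them Atp5o, Ndufb3 and Uqcrc2, at 3021, 1984 and 1506 bp. The Atp5o and Ndufb3 peaks lay 69705 and 24226 bp from the TSS. Unfolded protein and heat shock response genes had 5 of 26 (19.2%), led by Atf4, the factor of the integrated stress response, with 2262 bp and a score of 151, Hspa8, a chaperone, with 2118 bp (score 125), and Herpud1, a protein of endoplasmic reticulum degradation, with 1959 bp (score 54). Of the long noncoding and small RNA host genes, 4 of 14 (28.6%) had a broad peak. They were Malat1 (3543 bp, score 210), Neat1, the scaffold of paraspeckles (3134 bp, score 147), Mir22hg (2211 bp, score 188) and Mir99ahg (1897 bp, score 51). The genes of this list are noncoding, so the 4.05% of protein-coding genes is an unlike set for it. No share over noncoding genes was computed.

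Among cell type markers, preadipocyte and stromal progenitor genes had 5 of 21 (23.8%) with a broad peak, namely Prrx1, Twist1, Pdgfrb, Ly6a and Twist2, with widths from 5973 to 1533 bp. Macrophage (0 of 20), endothelial (0 of 18), skeletal muscle (0 of 20) and hepatocyte markers (0 of 20) had none, with any H3K27ac peak at 6, 8, 3 and 5 of them. The exact upper limit is 16.8% for 0 of 20 and 18.5% for 0 of 18, both above the 4.05% of all genes, so a lower share than in all genes is not shown. Neuronal markers had 1 of 18, Snap25, whose peak of 1562 bp lay 34440 bp from its TSS, and 2 with any peak.

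Foxp4 was then located within the broad peaks. A Foxp4 peak touched 217 of the broad peaks (20.5%, interval 18.1 to 23.1%) by 1 bp or more, against 1171 of the other peaks (7.14%, interval 6.75 to 7.55%) and 7.95% of all H3K27ac peaks. A wider peak offers more bases to share, so the share at the single centre base was tested instead, which 3.36% of all H3K27ac peaks had inside a Foxp4 peak. The centre lay in a Foxp4 peak at 38 broad peaks (3.59%, interval 2.55 to 4.90%) and at 549 other peaks (3.35%, interval 3.08 to 3.64%). The difference of 0.242 points (interval -0.912 to 1.40) did not pass the two-sided Fisher's exact test (adjusted p = 0.66), and the interval allows a share up to 1.40 points higher in broad peaks. With a width threshold of 1200 bp the shares were 4.73% and 3.20% (adjusted exact p = 0.0018), and with peaks under 500 bp apart merged they were 4.59% and 3.40% (adjusted exact p = 0.030), so both of these settings passed the test.

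Among promoter peaks the centre was in a Foxp4 peak at 20 of 543 broad (3.68%) and 270 of 5805 other peaks (4.65%), a difference of -0.968 points (interval -2.64 to 0.706, adjusted exact p = 0.42). Outside promoters it was at 18 of 515 broad (3.50%) and 279 of 10587 other peaks (2.64%), a difference of 0.860 points (interval -0.755 to 2.48, adjusted exact p = 0.42). Outside promoters the difference passed the test with merged peaks, 4.30% against 2.68% (adjusted exact p = 0.022), and with a 500 bp window around the centre, 7.57% against 5.27% (adjusted exact p = 0.046). Against peaks of 1000 to 1499 bp, the comparison chosen after seeing the data, Foxp4 at the centre was less frequent in broad peaks, 3.59% against 5.53% (adjusted exact p = 0.032). Over all peaks, the share with a Foxp4 peak in that 500 bp window was 8.70% in broad and 6.503% in other peaks (adjusted exact p = 0.012). Only 8351 of the 16392 other peaks are wide enough to hold the window, which in the rest runs beyond the acetylated peak.

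Per covered length the broad peaks held 101 Foxp4 peaks per Mb and the other peaks 119, a count in which a narrow acetylated peak can gain a Foxp4 peak at its edge. In bases, 4.18% of the broad peaks and 3.53% of the other peaks lay in Foxp4 peaks, so the order of the groups differs between the 2 measures. Promoter peaks held 101 Foxp4 peaks per Mb in the broad and 148 in the other group, and peaks outside promoters 101 and 99.97. Without the Foxp4 peaks at 6 recurrent score values (21, 27, 34, 41, 49 and 57), the density in broad peaks was 67.4 per Mb.

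Across the edge of a broad peak, the bases inside a Foxp4 peak made up 0.977% from 2000 to 1001 bp outside, 1.29% from 1000 to 501 bp, 1.73% from 500 to 251 bp and 2.41% in the last 250 bp. Inside they made up 3.72% of the first 250 bp, 4.14% of the next and 4.01% from 500 to 749 bp. Foxp4 coverage thus climbed towards the edge and stayed level within the broad peaks. The other peaks had 0.892%, 1.38%, 1.95% and 2.53% over the same distances outside, 3.60% in the first 250 bp inside (8351 peaks wide enough) and 4.94% in the next (1863 peaks).

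**Figure D5:**
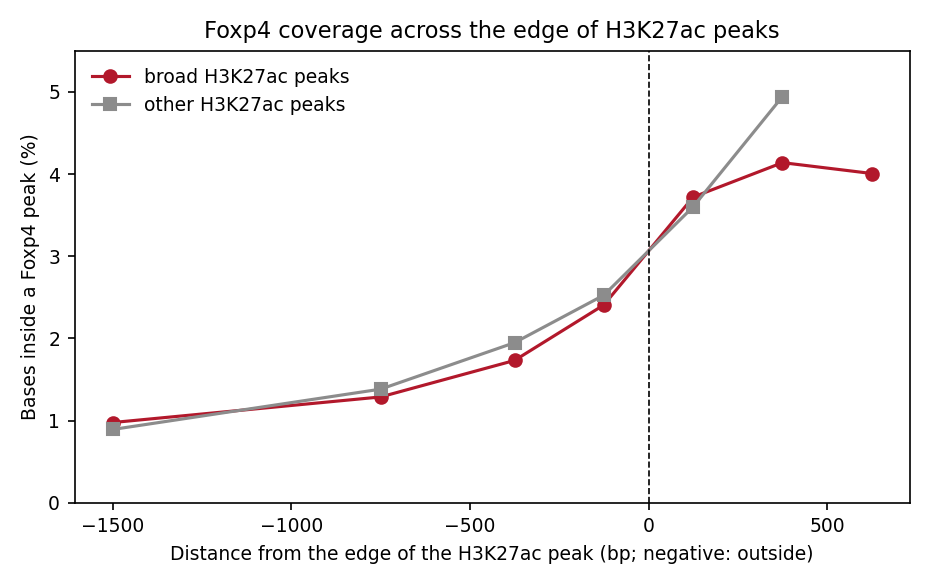
Percent of bases that lie inside a Foxp4 peak, by distance from the edge of the H3K27ac peak in bp (negative outside, dashed line at the edge), for broad peaks (red circles) and other peaks (grey squares). Points stand at the middle of each distance class. Both lines climb from about the same level outside, and in broad peaks the share is 3.72, 4.14 and 4.01% in the 3 classes inside.

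The 226 Foxp4 peaks within broad peaks had a median score of 34 in the Foxp4 list, those in other H3K27ac peaks (1163) one of 33 and those outside H3K27ac (15467) one of 27. Recurrent scores were held by 33.2% of the Foxp4 peaks in broad peaks, by 37.8% of those in other H3K27ac peaks and by 76.3% of those outside. The strongest in a broad peak was at Gt(ROSA)26Sor, a locus into which transgenes are often inserted, with a score of 292 and its centre 156 bp from that of the acetylated peak. Ccni, encoding an atypical cyclin, followed with 177 in an acetylated peak of 1540 bp, and Ubald1 with 108 in one of 3529 bp. Further strong ones, with scores from 82 to 64, were at Bcas1os2, Trib1, Stat6, Ptges2, Slc45a1 and Ap5z1. These were singled out after their values were seen. The Slc45a1 Foxp4 peak lay towards an end of the acetylated peak, 944 bp from its centre. At Trib1 the Foxp4 peak (59648297 to 59648881) only overlapped an end of the acetylated peak (59648757 to 59651108). Its own centre lay outside the acetylated peak, 1343 bp from the centre of that peak.

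Only 9 broad peaks shared bases with more than 1 Foxp4 peak, each with 2. They were at Twist1, Dhrs3 (a retinal reductase), Id3, Gt(ROSA)26Sor, Zmiz1 (a transcriptional coactivator), Mpc1 (a subunit of the mitochondrial pyruvate carrier), Gm10941, Foxo1 and Cct5 (a chaperonin subunit), with widths from 4407 to 1756 bp. Apart from the peak of 292 at Gt(ROSA)26Sor their Foxp4 scores ran from 21 to 41. At Id3 the Foxp4 peaks lay from 136143354 to 136143733 (score 25) and from 136144702 to 136144998 (score 24), and the first of them covered 162 bases of the Id3 window printed above. At Foxo1 they lay from 52267589 to 52268062 (score 24) and from 52269221 to 52269922 (score 34), on either side of the printed window, which had 0 bases in a Foxp4 peak. Over all windows, a Foxp4 peak shared bases with 9.57% of those wholly in broad peaks, 11.4% of those wholly in other peaks and 2.04% of those outside H3K27ac.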

How the data were processed

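The broad peaks, gene lists and tests were chosen with earlier results of these data known. The deposited files are peak lists, 1 per library, annotated with HOMER on mm10, per the file headers. The submitters' processing notes name Bowtie2, Picard, SAMtools, MACS2 and deepTools 3.3.0 but no settings. The peak score is the authors' deposited whole number, on a scale the file does not state. Peak positions and distances to the nearest TSS were also taken as deposited. No read numbers were used, so depth is unknown and no interval covers it.

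Width was end minus start plus 1. A promoter peak had its deposited distance within 1000 bp, and overlap meant at least 1 shared bp. Shares were compared by two-sided Fisher's exact tests on peaks, adjusted by Benjamini-Hochberg over 5 tests at a threshold of 0.05, with Wald intervals for differences. A planned test of CpG-rich promoters was void, because only 79.7% of the 5770 genes had a promoter sequence, under the 80% required. It was left out after its value had been seen. A Foxp4 score was called recurrent where 100 or more peaks had it and each adjacent score had under 1 in 3 of that number. Named genes were those of the 15 widest and 10 highest-scoring broad peaks, the 5 widest outside promoters, those with most Foxp4 peaks (9 tied) or most broad peaks, microRNA genes, markers, and up to 4 members per list, the widest. Other members are named only in counts of whole lists, and some named by the rule are not reported here. The code was tested on simulated data. It ran in Python 3.11.15 with scipy 1.17.1, pandas 2.3.3, numpy 2.4.6 and matplotlib 3.10.9.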

Additional observations from a re-analysis of the deposited data

How the results depend on the processing

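No paired analysis was possible because each kind of library was made once. Among the 50% of H3K27ac peaks with the higher scores, broad minus other differences were 2.40 points for promoters, -3.22 for intergenic peaks, and -0.942 (all) and -0.0338 (outside promoters) for Foxp4 at the centre. Against peaks of 1000 to 1499 bp, an alternative added after seeing the data, they were -4.82, -0.0397, -1.94 and -1.03. For Foxp4 at the centre the difference was 1.52 points with a width threshold of 1200 bp, 1.18 with peaks under 500 bp apart merged, 2.19 with a 500 bp window and 13.4 with any shared bp. Among promoter peaks it was 1.06 at 1200 bp, 0.642 at 2000 bp, 0.0945 merged, 1.01 in the window and 9.68 with any shared bp. Outside promoters it was 1.63 merged, 2.30 in the window and 15.8 with any shared bp, and the window value had an adjusted exact p of 0.046 over 5 tests. Of the list genes, 81 had a broad peak, 39 a broad promoter peak and 48 a peak of 2000 bp or more. Without recurrent Foxp4 scores the density in broad peaks was 67.4 per Mb, against 101. Any overlap grows with width by construction, and for the other changes the cause was not tested. Alternatives of the void CpG test were not run. The promoter difference kept its direction and its side of the threshold at both other width thresholds, with sex chromosomes, merged peaks, a 3000 bp window and the authors' promoter class (10.9 to 21.9 points). The 36.6 points with TSS coverage are no check of it, since that measure grows with width by construction. With 1 library each, unknown depth and an unstated call threshold, absence of a broad peak means only that none was listed.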

Other observations

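Neighbouring H3K27ac peaks were also measured. The nearest other H3K27ac peak lay within 1000 bp of 333 broad peaks (31.5%) and of 4047 other peaks (24.7%), and the median distance to it was 3440 bp for broad and 8308 bp for other peaks. Gaps of that size were then examined with chromosome 18 left out, unlike in the counts above. A TSS lay in 45 of 351 gaps beside at least 1 broad peak (12.8%) and in 425 of 1978 gaps between other peaks (21.5%). A Foxp4 peak shared bases with 19 of the 351 gaps (5.41%) and with 167 of the 1978 (8.44%), and Foxp4 peaks covered 2.26% of the bases of the gaps beside broad peaks and 3.84% of those between other peaks. The gaps beside broad peaks had a median length of 514 bp and those between other peaks one of 527 bp. No test was made of these values.

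The share of H3K27ac peaks that were broad ran from 3.91% on chromosome 13 (29 of 741) to 7.45% on chromosome 17 (57 of 765). Among CpG-poor promoter windows inside broad peaks, some of the lowest CpG ratios were at Phyhd1 (0) and at Islr (0.0470), an immunoglobulin-like gene of mesenchymal cells. Low ratios were also found at Tns2 (0.0708) and at Pcolce (0.194), a procollagen processing enhancer. Apart from Tns2, these genes were picked after their values were seen.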
